A study of Mus musculus with 8 samples.

Results

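The transforming growth factor beta (TGF-beta) ligands, their receptors and the latent binding proteins were followed by RNA sequencing in proliferating C2C12 cells, a mouse myoblast line, after knockdown of one subunit from each of 3 SWI/SNF chromatin remodelling complexes. The 10 genes were taken by name: the ligands Tgfb1, Tgfb2 and Tgfb3, the receptors Tgfbr1, Tgfbr2 and Tgfbr3, and the binders Ltbp1, Ltbp2, Ltbp3 and Ltbp4. They are 10 of 24573 genes in the count table, and all 10 were among the 12420 genes with enough reads to be tested. No measured value entered the choice of the family, though it was made with earlier results of these data known.

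TGF-beta is made as a precursor whose propeptide stays wrapped around the mature dimer and keeps it latent. Most cells secrete this latent complex bound by a disulfide bond to a latent TGF-beta binding protein (LTBP), which anchors it to fibrillin and fibronectin in the matrix until integrins or proteases release the ligand. The free ligand binds the type II receptor, which recruits and phosphorylates the type I receptor, and this in turn phosphorylates SMAD2 and SMAD3. In myoblasts TGF-beta is known as an inhibitor of differentiation and an inducer of matrix genes.

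Each of the 4 groups held 2 libraries, and all cells carried a lentiviral short hairpin RNA (shRNA) and had been selected with puromycin. The groups received an shRNA against Baf250A (gene Arid1a, a subunit of the canonical BAF complex), against Brd9 (a subunit of non-canonical BAF), against Baf180 (gene Pbrm1, a subunit of PBAF), or a scrambled shRNA as control. The sample titles carry a single hairpin code per target, so the effect of a hairpin and the effect of its target cannot be told apart. Whether the pair of libraries in a group stems from independent cultures is not stated, so a p-value reflects the spread between sequenced libraries, which may be technical.

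The libraries held 17763076 to 20400863 estimated counts. Scramble 2 had the fewest counts but the most genes detected, 16402 against 14195 to 14768 in the other libraries. It serves in every comparison with scramble, and the cause of this difference was not tested. Each targeted transcript was lower in its own knockdown. Arid1a had 1335 and 1243 counts in Baf250A knockdown, against 2834 and 2720 in scramble (log2 fold change −1.27, SE 0.12, edgeR adjusted p = 0.000184). Brd9 had 157 and 135 counts in Brd9 knockdown, against 717 and 637 in scramble (−2.39, SE 0.16, adjusted p = 7.48e-05). Pbrm1 had 65 and 86 counts in Baf180 knockdown, against 876 and 969 in scramble (−3.63, SE 0.28, adjusted p = 7.04e-05).

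One property of the libraries touches every result on the family. Across genes, the log2 fold change against scramble moved with the GC content of the transcript, with a Spearman rho of −0.53 for Baf250A, −0.295 for Brd9 and 0.595 for Baf180. The tenth of genes with the lowest GC sat at a median of 0.48 and 1.06 (log2, relative to the mean of all libraries) in the Baf250A libraries, 0.44 and 0.05 in Brd9, −1.10 and −0.69 in Baf180, and −0.18 and −0.01 in scramble. Replicates of a knockdown therefore differed from each other in this respect. The transcripts of the family run from 42.63% GC for Tgfbr1 to 62.53% for Tgfb1. The fold changes of the family against scramble are therefore given beside values from a fit with GC and length offsets. In that fit the rho values were 0.04, 0.024 and 0.001. For many of the other genes below only values without offsets are given. How far the trend is technical was not tested.

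Marker genes also moved with the groups. The summed level of 8 myoblast markers was 782 to 1010 CPM (counts scaled to a common library size) in Baf250A knockdown, 1490 to 1930 in Brd9, 2460 to 3500 in Baf180 and 1890 to 1910 in scramble. Des gave the largest part of the increase in Baf180 (2070 and 1310 CPM, against 975 and 951 in scramble), while Myf5 was lower there (7.13 and 10.7, against 22.2 and 28.0). Pax7 was higher in Brd9 (11.6 and 10.2) and Baf180 (15.4 and 13.9) and lower in Baf250A (0.905 and 0.207), against 3.2 and 2.77 in scramble. The sum of 5 smooth muscle markers was 7790 to 9230, 5070 to 6240, 8670 to 10900 and 3420 to 3430 CPM in the same order, most of it from Acta2 (8770 and 7400, 4750 and 5840, 10400 and 8280, and 3090 and 3120 CPM), which is also on the target list below. Smtn was lower in Baf250A (237 and 181 CPM) and Brd9 (175 and 227), against 281 and 271 in scramble. The sum of 6 fibroblast markers was 98.8 to 112, 49.1 to 66.1, 60.5 to 62.0 and 25.1 to 26.4 CPM. Only 2 of the 6, Pdgfra and Ly6a, reached 1 CPM, and they made up nearly all of this sum. Dpt, Pi16 and Col15a1 were at most 0.232 CPM, with Dpt and Pi16 at 0 in both Baf250A libraries. The fibroblast factor Tcf21 was at 0 in all libraries. Macrophage markers summed to at most 3.59 CPM with Adgre1 at 0, endothelial markers to at most 0.63 CPM, and epithelial markers to 4.62 to 16.9 CPM with Epcam at 0. In bulk RNA, fewer cells that make a transcript and less transcript per cell cannot be told apart, and the part of these markers in the results below was not tested.

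Members of the family were called in each knockdown against scramble. In Baf250A knockdown 5 of 10 genes were higher and 2 lower, where 15.5% of all tested genes were called higher and 14.0% lower at an adjusted p under 0.05. In Brd9 knockdown 2 of 10 were higher and none lower, against 6.45% and 3.57% of all genes. In Baf180 knockdown 6 of 10 were higher and none lower, against 17.2% and 17.0%. With GC and length offsets the counts were 6 higher and 2 lower in Baf250A (all genes: 18.0% and 17.6%), 5 and 0 in Brd9 (12.4% and 17.2%), and 8 and 0 in Baf180 (18.1% and 20.6%). Leaving out 1 library took the Brd9 count to 0 (without scramble 1 or scramble 2), 1 (without Brd9 1) or 4 (without Brd9 2), and the Baf250A total to 4 (without scramble 1 or Baf250A 2). The median log2 fold change of the 10 genes was 0.62, 0.53 and 0.90 in Baf250A, Brd9 and Baf180 knockdown, beside −0.017, 0.036 and −0.021 over all tested genes. With offsets the medians of the 10 genes were 0.51, 0.33 and 0.54. The 3 comparisons share the same 2 scramble libraries.

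**Figure D1:**
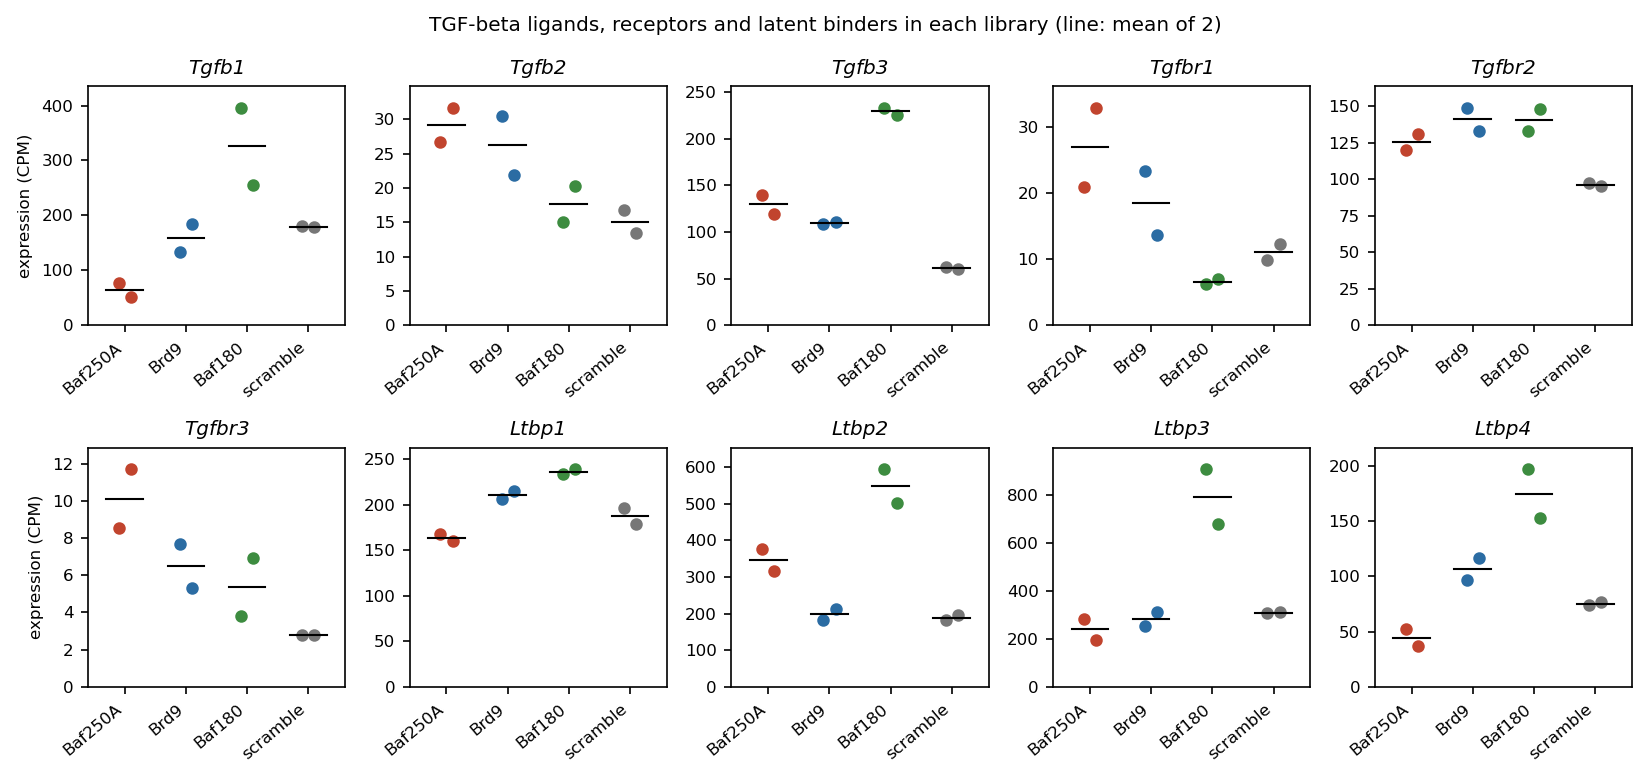
Level of each of the 10 genes (CPM, vertical axes from 0) in the 8 libraries; points are single libraries and lines the mean of the 2 in a group. Tgfb3 lies above scramble in all 6 knockdown libraries, Tgfb1 lies below it in both Baf250A libraries and 1 Brd9 library, and Ltbp3 well above it in both Baf180 libraries.

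Among the ligands, Baf250A knockdown lowered Tgfb1 and raised Tgfb2 and Tgfb3, while in Baf180 knockdown Tgfb1 and Tgfb3 were called higher. Tgfb1 (gene ID 21803), the isoform with the widest expression, lies on chromosome 7 from 25687002 to 25705077 on the plus strand of GRCm38. It had 76.7 and 50.7 CPM in Baf250A knockdown, 133 and 185 in Brd9, 396 and 256 in Baf180, and 180 and 179 in scramble. Both Baf250A libraries fell below scramble, both Baf180 libraries lay above it, and the Brd9 libraries overlapped it.

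The fall of Tgfb1 in Baf250A knockdown was −1.49 (log2, SE 0.26, adjusted p = 0.00414) and −1.05 with offsets, and it was called whichever of the 4 libraries was left out. The rise in Baf180 knockdown was 0.86 (SE 0.25, adjusted p = 0.0293). That call did not hold with offsets (0.22, adjusted p = 0.132), nor without scramble 1, scramble 2 or Baf180 1 (adjusted p up to 0.208). In Brd9 knockdown the difference was −0.17 (adjusted p = 0.673; −0.12 with offsets). In the order Baf180, scramble, Brd9 and Baf250A, Brd9 and scramble did not differ beyond their spread.

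Tgfb3 (gene ID 21809; chromosome 12, 86056743 to 86079041, minus strand) was the ligand called higher in all 3 knockdowns both with and without offsets. It had 140 and 119 CPM in Baf250A, 108 and 111 in Brd9, 233 and 225 in Baf180, and 61.9 and 60.7 in scramble. No knockdown library reached down to the scramble level. The log2 fold change was 1.08 in Baf250A (SE 0.13, adjusted p = 0.000597), 0.84 in Brd9 (SE 0.13, adjusted p = 0.00501) and 1.90 in Baf180 (SE 0.13, adjusted p = 4.32e-05). With offsets these values were 1.30, 0.85 and 1.68, all still called. The Brd9 call did not hold without scramble 1 or without scramble 2 (adjusted p up to 0.0824), while the other 2 held whichever library was left out. Baf250A and Brd9, neighbours in the order, were not called different (0.24, adjusted p = 0.193), but were with offsets (0.45, adjusted p = 0.0018).

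Tgfb2 (gene ID 21808; chromosome 1, 186622787 to 186709697, minus strand) was the least abundant ligand per kilobase in all libraries. It had 26.7 and 31.7 CPM in Baf250A, 30.5 and 21.9 in Brd9, 15.0 and 20.3 in Baf180, and 16.8 and 13.4 in scramble. The Baf250A and Brd9 libraries lay above scramble, and the Baf180 libraries overlapped it. It rose in Baf250A by 0.95 (log2, SE 0.23, adjusted p = 0.016; 0.69 with offsets), a call that did not hold without scramble 1, scramble 2 or Baf250A 2 (adjusted p up to 0.116). The values were 0.79 in Brd9 (adjusted p = 0.0582) and 0.22 in Baf180 (adjusted p = 0.472). With offsets both passed, at 0.48 (adjusted p = 0.0211) and 0.47 (adjusted p = 0.0185).

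The make-up of the ligand transcripts changed along with their levels. Per kilobase of transcript, which allows genes to be set side by side, Tgfb1 made 43.0% and 36.0% of the summed ligand CPM in Baf250A knockdown, 61.7% and 69.6% in Brd9, 71.7% and 62.6% in Baf180, and 79.2% and 80.0% in scramble. Tgfb3 made 50.6% and 54.4% in Baf250A, 32.3% and 26.9% in Brd9, 27.2% and 35.3% in Baf180, and 17.6% and 17.5% in scramble. The ratio of Tgfb3 to Tgfb1 per kilobase was 1.18 and 1.51 in Baf250A knockdown, 0.523 and 0.386 in Brd9, 0.379 and 0.564 in Baf180, and 0.222 and 0.218 in scramble. Tgfb3 exceeded Tgfb1 in both Baf250A libraries and in no other library. The ligand sum was 81.5 and 64.2 CPM per kilobase in Baf250A, 98.8 and 121 in Brd9, 252 and 187 in Baf180, and 103 and 102 in scramble. These shares, ratios and sums are without offsets, with which the Baf180 rise of Tgfb1 went from 0.86 to 0.22 (log2). The part of the GC trend in them was not tested.

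**Figure D2:**
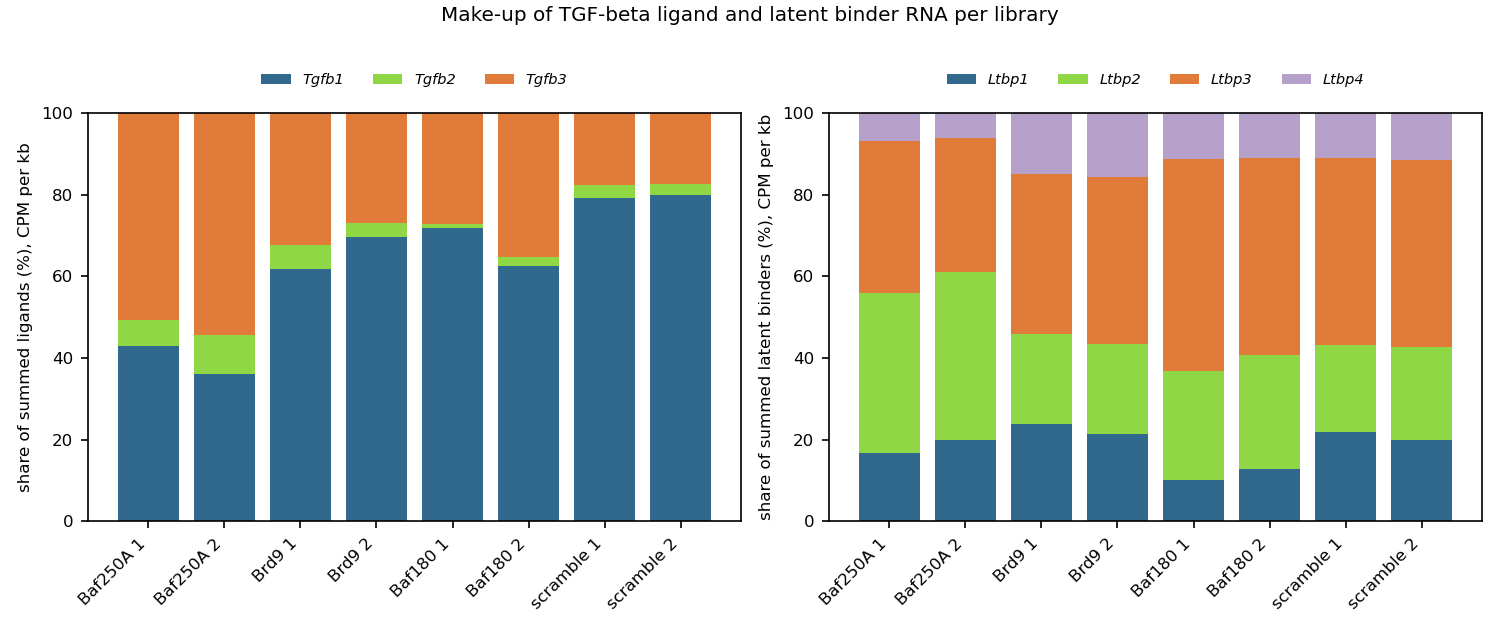
Make-up of the ligand and the LTBP transcripts in each library, as percent of the CPM per kilobase of its class; each bar is 1 library. The Tgfb1 share is 36.0% to 43.0% in Baf250A knockdown and 79.2% to 80.0% in scramble, and the Ltbp2 share is highest in the Baf250A libraries.

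The promoters of Tgfb1 and Tgfb2, the most and least abundant ligand per kilobase in scramble, which changed in opposite directions in Baf250A knockdown, are shown because they differ in base composition. They are given as 300-base windows from RefSeq (GRCm38.p6), 250 bases before to 50 after the annotated start, 5′ to 3′ on the gene's strand. Capitals mark matches on either strand to a GC box (GGGCGG, bound by Sp factors) or a TATA box (TATAAA). The Tgfb1 window is chr7:25686752-25687051 on the plus strand, and the Tgfb2 window is chr1:186705940-186706239 on the minus strand. The Tgfb2 window lies wholly inside the span given above for the gene, so its start is not the outer end of that span.
Tgfb1: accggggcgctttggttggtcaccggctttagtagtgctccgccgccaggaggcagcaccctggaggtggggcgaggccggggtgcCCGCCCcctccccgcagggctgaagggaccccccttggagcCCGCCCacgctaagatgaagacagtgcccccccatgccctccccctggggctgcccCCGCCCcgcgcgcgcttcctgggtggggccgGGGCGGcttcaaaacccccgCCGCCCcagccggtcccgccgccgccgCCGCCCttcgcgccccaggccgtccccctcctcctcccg
Tgfb2: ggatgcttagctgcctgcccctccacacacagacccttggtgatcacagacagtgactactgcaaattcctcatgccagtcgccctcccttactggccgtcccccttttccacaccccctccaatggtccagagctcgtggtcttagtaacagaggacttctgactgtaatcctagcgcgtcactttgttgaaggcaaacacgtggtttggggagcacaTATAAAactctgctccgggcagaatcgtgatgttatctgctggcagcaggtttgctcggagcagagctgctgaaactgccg
The Tgfb1 window is 77.0% GC and holds 6 GC boxes and no TATA box. The Tgfb2 window is 54.3% GC and holds a TATA box 31 bases before the start and no GC box. Of 32851 mouse promoters in the table, 35.7% hold a GC box and 13.6% a TATA box, the median GC is 52.7%, and 2.25% are richer in GC than that of Tgfb1. These matches describe the sequence and were not tested for binding.

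Among the receptors, Tgfbr1 and Tgfbr3 were higher in Baf250A knockdown, and Tgfbr2 was higher in Brd9 and Baf180 knockdown. Tgfbr2 (gene ID 21813; chromosome 9, 116087695 to 116175363, minus strand), the type II kinase that binds ligand, was the most abundant receptor per kilobase in all libraries. It had 120 and 131 CPM in Baf250A, 149 and 133 in Brd9, 133 and 148 in Baf180, and 97.3 and 95.2 in scramble. All 6 knockdown libraries lay above scramble. The log2 fold change was 0.38 in Baf250A (SE 0.13, adjusted p = 0.051), 0.55 in Brd9 (SE 0.13, adjusted p = 0.0296) and 0.55 in Baf180 (SE 0.13, adjusted p = 0.0127). With offsets they were 0.48, 0.44 and 0.36, and all 3 were called. The Brd9 call did not hold without scramble 1, scramble 2 or Brd9 1 (adjusted p up to 0.219), nor the Baf180 call without scramble 1 or scramble 2 (adjusted p up to 0.0982). Without offsets, no neighbours in the order Brd9, Baf180, Baf250A and scramble were called different.

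Tgfbr1 (gene ID 21812; chromosome 4, 47353222 to 47414926, plus strand) encodes the type I kinase, which phosphorylates SMAD2 and SMAD3. It had 20.9 and 32.9 CPM in Baf250A, 23.4 and 13.7 in Brd9, 6.26 and 6.93 in Baf180, and 9.88 and 12.3 in scramble. Baf250A and Brd9 libraries lay above scramble and Baf180 libraries below it, and replicates of Baf250A and Brd9 were far apart. It rose by 1.28 in Baf250A (log2, SE 0.30, adjusted p = 0.0135), while the values were 0.74 in Brd9 (adjusted p = 0.131) and −0.75 in Baf180 (adjusted p = 0.0891). Its transcript has the lowest GC content of the family, and the offsets moved these values to 0.54 (adjusted p = 0.0186), 0.26 and −0.13. The Baf250A call did not hold without scramble 1 or Baf250A 2 (adjusted p up to 0.0966).

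Tgfbr3 (gene ID 21814; chromosome 5, 107106567 to 107289629, minus strand) encodes betaglycan, a co-receptor without a kinase that presents ligand, TGF-beta 2 above all, to the type II receptor. It had 8.55 and 11.7 CPM in Baf250A, 7.66 and 5.29 in Brd9, 3.83 and 6.93 in Baf180, and 2.81 and 2.77 in scramble. All knockdown libraries lay above scramble at these low levels. The rise was 1.86 in Baf250A (log2, SE 0.33, adjusted p = 0.00467; 1.69 with offsets) and was called whichever library was left out. In Brd9 and Baf180 the values were 1.21 (SE 0.34, adjusted p = 0.0518) and 0.95 (SE 0.34, adjusted p = 0.0568), and with offsets both passed, at 0.95 (adjusted p = 0.017) and 1.09 (adjusted p = 0.0071). Without offsets, no neighbours in the order Baf250A, Brd9, Baf180 and scramble were called different, while with offsets Baf250A exceeded Brd9 (0.74, adjusted p = 0.0178).

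Without offsets, the balance of the 2 kinases differed between knockdowns. Tgfbr2 exceeded Tgfbr1 per kilobase 7.04- and 4.84-fold in Baf250A libraries, 7.79- and 11.9-fold in Brd9, 26.0- and 26.0-fold in Baf180, and 12.0- and 9.48-fold in scramble. Both Baf180 libraries stood above all others. Since these transcripts differ in GC content (42.63% for Tgfbr1 and 52.11% for Tgfbr2), the ratio moves with the GC trend as well. Against scramble, Tgfbr2 and Tgfbr1 stood at 0.38 and 1.28 (log2) in Baf250A, and at 0.48 and 0.54 with offsets. In Brd9 they stood at 0.55 and 0.74, and at 0.44 and 0.26 with offsets. In Baf180 they stood at 0.55 and −0.75, and at 0.36 and −0.13 with offsets. The ratio itself was not tested with offsets.

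**Figure D3:**
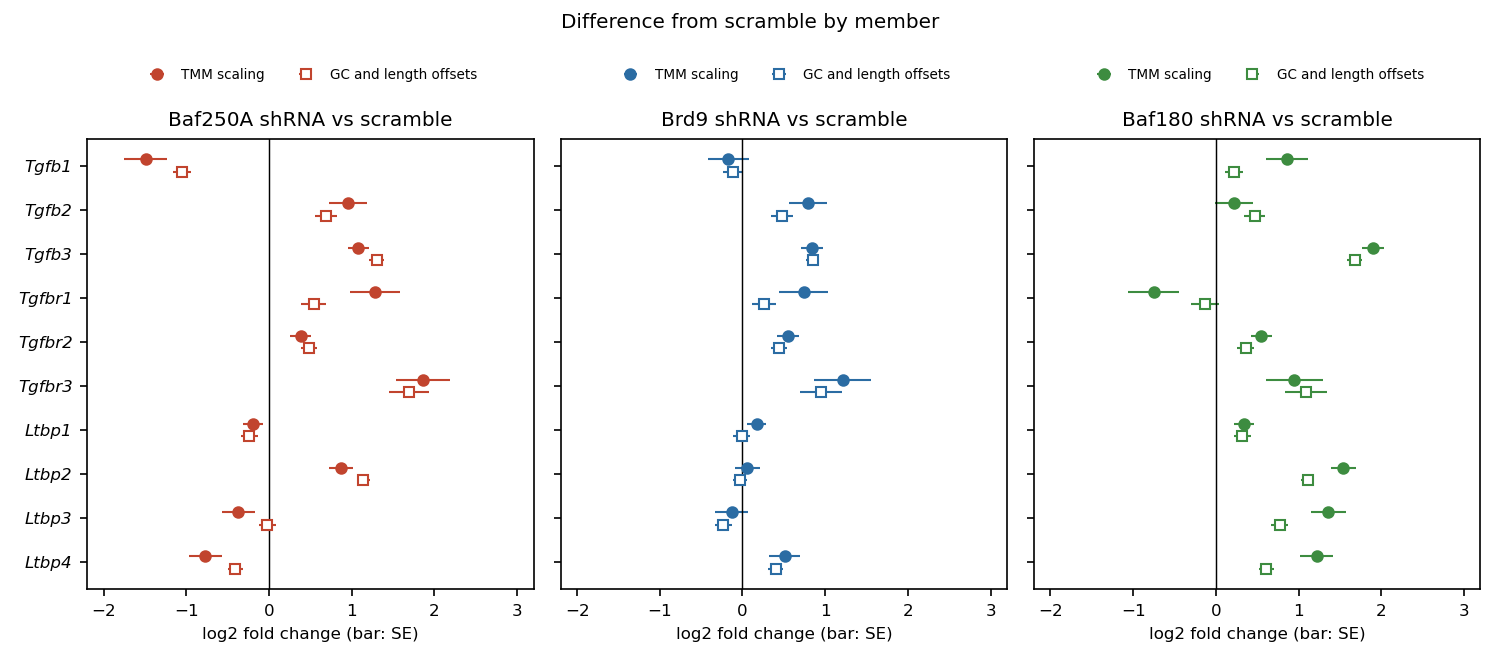
Log2 fold change against scramble for the 10 genes in each knockdown (bars: SE); filled circles are the fit with TMM (trimmed mean of M-values) scaling and open squares the fit with GC and length offsets. The offsets pull Tgfb1 in Baf180 knockdown to 0.22 and Tgfbr1 in Baf250A knockdown to 0.54, and leave Tgfb3 above 0 in all 3 panels.

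Among the latent binders, Baf180 knockdown raised Ltbp2, Ltbp3 and Ltbp4, Baf250A knockdown raised Ltbp2 and lowered Ltbp4, and no LTBP was called in Brd9 knockdown. Ltbp2 (gene ID 16997; chromosome 12, 84783212 to 84876558, minus strand) encodes a fibrillin-binding matrix protein that, unlike the other LTBPs, does not bind latent TGF-beta. It had 376 and 316 CPM in Baf250A, 183 and 212 in Brd9, 594 and 501 in Baf180, and 183 and 195 in scramble. Baf250A and Baf180 libraries lay above all Brd9 and scramble libraries. The log2 fold change was 0.87 in Baf250A (SE 0.15, adjusted p = 0.00383), 0.06 in Brd9 (adjusted p = 0.796) and 1.54 in Baf180 (SE 0.15, adjusted p = 0.000239). With offsets they were 1.14, −0.03 and 1.11. The Baf250A and Baf180 calls held whichever library was left out, and in the order Baf180, Baf250A, Brd9 and scramble Brd9 and scramble were not called different. With offsets Baf250A and Baf180 were not called different either (0.04, adjusted p = 0.707).

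Exons of Ltbp2 overlap the antisense gene D030025P21Rik, and whether the counting used strand is unknown here. D030025P21Rik had 17.4 and 13.1 CPM in Baf250A, 8.92 and 11.2 in Brd9, 21.3 and 16.9 in Baf180, and 8.09 and 9.07 in scramble. As for Ltbp2, its Baf250A and Baf180 libraries lay above all Brd9 and scramble libraries, and reads of these genes cannot be told apart where they overlap.

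Ltbp3 (gene ID 16998; chromosome 19, 5740900 to 5758536, plus strand) encodes an LTBP that, like Ltbp1, can bind all 3 latent ligands. It had 282 and 197 CPM in Baf250A, 254 and 311 in Brd9, 909 and 680 in Baf180, and 309 and 311 in scramble. The Baf180 libraries stood above all others, and the remaining groups lay close together. It rose by 1.36 in Baf180 (log2, SE 0.21, adjusted p = 0.00205; 0.77 with offsets), and the call held whichever library was left out. The values were −0.37 in Baf250A (adjusted p = 0.184; −0.02 with offsets) and −0.13 in Brd9 (adjusted p = 0.683; −0.23 with offsets).

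Ltbp4 (gene ID 108075; chromosome 7, 27305140 to 27339720, minus strand), a binder selective for latent TGF-beta 1, was the LTBP that moved in opposite directions. It had 51.9 and 36.7 CPM in Baf250A, 96.9 and 117 in Brd9, 197 and 153 in Baf180, and 73.8 and 76.8 in scramble. Baf250A libraries lay below scramble, and Brd9 and Baf180 libraries above it. It fell in Baf250A (−0.77, SE 0.20, adjusted p = 0.0197; −0.41 with offsets) and rose in Baf180 (1.22, SE 0.20, adjusted p = 0.00268; 0.61 with offsets). The Brd9 value was 0.51 (adjusted p = 0.12), and with offsets 0.40 (adjusted p = 0.00938). The Baf250A call did not hold without scramble 1, scramble 2 or Baf250A 2 (adjusted p up to 0.178), and the Baf180 call held whichever library was left out. Tgfb1 and Ltbp4, both near 62.5% GC, were the 2 members called lower in Baf250A.

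Ltbp1 (gene ID 268977; chromosome 17, 75005480 to 75392512, plus strand), which binds all 3 latent ligands and anchors them in the matrix, varied least of the 4 LTBPs between group means. It had 168 and 160 CPM in Baf250A, 206 and 215 in Brd9, 234 and 239 in Baf180, and 196 and 179 in scramble. Without offsets none of its differences from scramble was called. They were −0.19 in Baf250A (adjusted p = 0.232; −0.24 with offsets), 0.17 in Brd9 (adjusted p = 0.364; −0.01 with offsets) and 0.34 in Baf180 (adjusted p = 0.0531). With offsets the Baf180 difference passed, at 0.32 (adjusted p = 0.0251). Per kilobase, Ltbp2 exceeded Ltbp1 2.34- and 2.07-fold in Baf250A libraries and 2.65- and 2.19-fold in Baf180, and stood at 0.928- and 1.03-fold in Brd9 and 0.975- and 1.14-fold in scramble. The LTBP sum was 145 and 116 CPM per kilobase in Baf250A, 125 and 146 in Brd9, 337 and 271 in Baf180, and 130 and 130 in scramble. These ratios and sums are without offsets, with which the Baf180 rises of Ltbp2, Ltbp3 and Ltbp4 shrank to 1.11, 0.77 and 0.61 (log2). The part of the GC trend in them was not tested.

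The promoters of Ltbp2 and Ltbp3, the LTBPs with the largest rises in Baf180 knockdown, are shown in the same form, with GC boxes and the AP-1 site (TGANTCA) in capitals. The Ltbp2 window is chr12:84876442-84876741 on the minus strand, and the Ltbp3 window is chr19:5740650-5740949 on the plus strand.
Ltbp2: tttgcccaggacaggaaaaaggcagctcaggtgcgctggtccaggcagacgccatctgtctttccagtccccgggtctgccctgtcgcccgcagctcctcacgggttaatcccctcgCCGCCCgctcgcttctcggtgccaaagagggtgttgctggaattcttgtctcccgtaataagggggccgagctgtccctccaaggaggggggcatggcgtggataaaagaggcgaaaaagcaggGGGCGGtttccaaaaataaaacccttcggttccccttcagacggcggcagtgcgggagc
Ltbp3: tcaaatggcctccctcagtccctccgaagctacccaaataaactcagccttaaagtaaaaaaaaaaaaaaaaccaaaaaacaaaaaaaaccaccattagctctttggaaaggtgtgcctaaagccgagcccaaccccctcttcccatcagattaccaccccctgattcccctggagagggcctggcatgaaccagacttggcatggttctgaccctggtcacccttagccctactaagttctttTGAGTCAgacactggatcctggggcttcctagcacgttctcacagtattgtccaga
The Ltbp2 window is 61.0% GC with 2 GC boxes, and the Ltbp3 window is 48.0% GC with no GC box and an AP-1 match 6 bases before the start. Among all promoters 7.81% hold the AP-1 motif. The windows for Tgfbr1, Tgfbr2, Ltbp1 and Ltbp4 range from 50.0% to 81.3% GC, and the 3 Ltbp4 windows hold 3 to 9 GC boxes each. The SMAD palindrome GTCTAGAC, present in 0.213% of all promoters, is in none of the 12 windows of the 8 members with an entry.

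The knockdowns were also set directly against each other. Between Baf250A and Baf180, 3 genes were higher in Baf250A and 6 lower, where 30.8% and 31.7% of all tested genes were called. The fold changes (log2, Baf250A over Baf180) were 2.03 for Tgfbr1 (SE 0.31, adjusted p = 0.000604), 0.91 for Tgfbr3 and 0.72 for Tgfb2, and on the other side −2.36 for Tgfb1 (SE 0.27, adjusted p = 0.000181), −1.98 for Ltbp4, −1.73 for Ltbp3, −0.82 for Tgfb3, −0.66 for Ltbp2 and −0.53 for Ltbp1. The calls of Tgfb2 and Tgfbr3 did not hold without Baf250A 2 or without Baf180 1, and those of Ltbp1 and Ltbp2 did not hold without Baf250A 2, which left 5 of 9. With offsets 2 genes were higher and 5 lower (all genes: 29.1% and 26.5%). Tgfb2 (0.22, adjusted p = 0.174) and Ltbp2 (0.04, adjusted p = 0.707) were then no longer called, and the called values shrank to 0.68 for Tgfbr1, 0.60 for Tgfbr3, −1.27 for Tgfb1, −1.02 for Ltbp4, −0.80 for Ltbp3 and −0.39 for Tgfb3, with Ltbp1 at −0.56.

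Between Brd9 and Baf180, Tgfbr1 was higher in Brd9 (1.49, SE 0.31, adjusted p = 0.00687) and Tgfb1, Tgfb3, Ltbp2, Ltbp3 and Ltbp4 were lower (−1.04, −1.06, −1.47, −1.49 and −0.71), where 26.3% of all genes were called higher and 23.3% lower. The calls of Tgfb1, Tgfbr1 and Ltbp4 did not hold without Brd9 1 or without Baf180 1, which left 3 of 6. With offsets 0 genes were higher and 5 lower (all genes: 14.9% and 18.0%). Tgfbr1 (0.40, adjusted p = 0.0851) and Ltbp4 (−0.20, adjusted p = 0.11) were no longer called, Ltbp1 was (−0.34, adjusted p = 0.0253), and Tgfb1 stood at −0.35, Tgfb3 at −0.83, Ltbp2 at −1.13 and Ltbp3 at −1.0. Between Baf250A and Brd9, Ltbp2 was higher in Baf250A (0.81, SE 0.15, adjusted p = 0.00514), and Tgfb1 (−1.32, SE 0.26, adjusted p = 0.00675) and Ltbp4 (−1.27, SE 0.20, adjusted p = 0.00217) were lower, where 10.0% and 15.0% of all genes were called. These 3 calls held whichever library was left out. With offsets 3 genes were higher and 2 lower (all genes: 24.8% and 19.3%), at 1.17 for Ltbp2, −0.92 for Tgfb1, −0.81 for Ltbp4, and newly 0.45 for Tgfb3 and 0.74 for Tgfbr3.

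The genes around the family were read from 3 lists: 20 genes that store, carry or release latent TGF-beta, 22 genes of signal transduction and its inhibitors, and 18 transcriptional targets known from other cell systems. Fbn2, Nrros, Acvrl1 and Cdkn2b had too few reads and were not tested. Of the 18 tested release genes, 3 were higher and 4 lower in Baf250A knockdown, 6 and 0 in Brd9, and 11 and 1 in Baf180 (6 and 4, 9 and 1, and 10 and 1 with offsets). Without offsets, the shares of all tested genes called higher and lower were 15.5% and 14.0% in Baf250A, 6.45% and 3.57% in Brd9, and 17.2% and 17.0% in Baf180. With offsets they were 18.0% and 17.6% in Baf250A, 12.4% and 17.2% in Brd9, and 18.1% and 20.6% in Baf180. These shares apply to the counts of all 3 lists. The 3 release genes higher in Baf250A without offsets are thus near the background share. The median log2 fold change of the release genes was 0.04, 0.29 and 0.67 in the same order. Without scramble 2 the Brd9 count was 2.

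The release gene with the largest change in Baf250A knockdown was Lrrc32, which encodes GARP, a membrane protein that holds latent TGF-beta on the cell surface. It had 96.4 and 82.3 CPM in Baf250A, 8.24 and 9.43 in Brd9, 9.33 and 8.24 in Baf180, and 6.12 and 6.94 in scramble. The Baf250A libraries stood far above all others (3.77, SE 0.18, adjusted p = 7.27e-06; 4.13 with offsets). Fn1, the fibronectin that anchors Ltbp1, fell in Baf250A (−1.04, SE 0.13, adjusted p = 0.000796), with −0.35 in Brd9 (adjusted p = 0.112; called with offsets at −0.50) and 0.01 in Baf180 (adjusted p = 0.958). Fbn1, the fibrillin that LTBPs attach to, rose in all 3 knockdowns, by 0.88 in Baf250A (SE 0.12, adjusted p = 0.00102), 0.67 in Brd9 (SE 0.12, adjusted p = 0.0086) and 0.84 in Baf180 (SE 0.12, adjusted p = 0.00136), of which the Brd9 call did not hold without scramble 1 or scramble 2.

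Emilin1, a matrix protein that restrains processing of the TGF-beta 1 precursor, had 3.82 and 2.94 CPM in Baf250A, 13.7 and 13.4 in Brd9, 18.5 and 16.4 in Baf180, and 3.37 and 3.12 in scramble. It rose in Brd9 (2.06, SE 0.21, adjusted p = 0.000576) and in Baf180 (2.42, SE 0.21, adjusted p = 0.000128). The protease Mmp2 rose in both as well, by 1.09 (SE 0.15, adjusted p = 0.00264) and 1.47 (SE 0.15, adjusted p = 0.000272), though the Brd9 call did not hold without scramble 2. With offsets Mmp2 was also called higher in Baf250A (0.63, adjusted p = 0.000579). Plat, the tissue plasminogen activator, rose by 1.27 in Brd9 (SE 0.16, adjusted p = 0.00184) and by 1.02 in Baf180 (SE 0.16, adjusted p = 0.00249). Itgb3, the beta chain of a latent TGF-beta binding integrin, rose by 0.78 in Brd9 (SE 0.13, adjusted p = 0.00697; not without scramble 2) and by 1.31 in Baf180 (SE 0.13, adjusted p = 0.000239).

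Of the 21 tested transduction genes, 5 were higher and 0 lower in Baf250A, 2 and 0 in Brd9, and 4 and 6 in Baf180 (6 and 1, 2 and 3, and 3 and 4 with offsets). The 2 higher in Brd9 and the 4 higher in Baf180 are near the background shares. With offsets the counts in Brd9 and Baf180 are near their shares in both directions. These counts rested on single libraries. The 5 in Baf250A became 0 without scramble 1, 1 without scramble 2 and 2 without Baf250A 2. The 2 in Brd9 became 0 without scramble 2 and 1 without any other library, and in Baf180 the 4 became 2 without scramble 1 and the 6 became 1 without scramble 1, scramble 2 or Baf180 1. Ski, a corepressor of SMADs, rose in Baf250A (0.50, SE 0.12, adjusted p = 0.0159), Brd9 (0.46, SE 0.12, adjusted p = 0.0428) and Baf180 (0.76, SE 0.12, adjusted p = 0.00246). The Baf250A call did not hold without scramble 1, scramble 2 or Baf250A 2, and the Brd9 call failed whichever of its 4 libraries was left out. Smad3, the receptor-activated SMAD that binds DNA, had 55.1 and 51.0 CPM in Baf250A, 120 and 136 in Brd9, 121 and 115 in Baf180, and 71.8 and 62.3 in scramble. It rose in Brd9 (0.93, SE 0.14, adjusted p = 0.0036; not without scramble 2) and in Baf180 (0.82, SE 0.14, adjusted p = 0.00308).

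In Baf250A knockdown the related corepressor Skil rose by 1.33 (SE 0.28, adjusted p = 0.00902; 0.46 with offsets), a call that did not hold without scramble 1. In Baf180 knockdown Skil fell (−0.84, SE 0.28, adjusted p = 0.0469), which did not hold with offsets (−0.13) or without scramble 1, scramble 2 or Baf180 1. The ubiquitin ligase Smurf2 rose in Baf250A by 0.96 (SE 0.20, adjusted p = 0.00852), which did not hold without scramble 1 or scramble 2. It stood at 0.52 in Brd9 (adjusted p = 0.119) and at −0.55 in Baf180 (adjusted p = 0.0605). With offsets Smurf2 was called lower in Baf180 (−0.32, adjusted p = 0.0245). Usp15, a deubiquitinase that acts on the type I receptor and SMADs, fell in Baf180 (−1.27, SE 0.22, adjusted p = 0.00363; −0.49 with offsets). In Baf250A Usp15 was called higher (0.64, SE 0.21, adjusted p = 0.048), but the sign turned with offsets (−0.24, adjusted p = 0.0922) and the call did not hold without scramble 1, scramble 2 or Baf250A 2.

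Of the 17 tested target genes, 10 were higher and 2 lower in Baf250A, 6 and 3 in Brd9, and 7 and 2 in Baf180 (12 and 2, 9 and 3, and 8 and 3 with offsets). The 2 lower in Baf250A and the 2 lower in Baf180 are near the background shares. With offsets the counts of lower genes are near their shares in all 3 knockdowns. The 10 in Baf250A became 6 without scramble 1 or scramble 2, and the 6 in Brd9 became 2 without scramble 1, 1 without scramble 2 and 3 without Brd9 1. The 2 and 3 called lower in Baf250A and Brd9 became 1 without scramble 1, and also without Baf250A 1 in Baf250A and without scramble 2 or Brd9 1 in Brd9.

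Most of the named targets changed in more than 1 knockdown. The matrix protein tenascin C (Tnc) fell in Baf250A (−1.41, SE 0.13, adjusted p = 0.000119), Brd9 (−0.76, SE 0.12, adjusted p = 0.00637) and Baf180 (−1.22, SE 0.13, adjusted p = 0.00028). The Brd9 call did not hold without scramble 1, scramble 2 or Brd9 1. Hmga2, a chromatin protein, also fell in Baf250A (−0.70, SE 0.14, adjusted p = 0.0069; not without scramble 1 or Baf250A 1), Brd9 (−1.24, SE 0.14, adjusted p = 0.000913) and Baf180 (−2.08, SE 0.14, adjusted p = 3.91e-05). The collagen gene Col1a1 rose in Baf250A (0.77, SE 0.12, adjusted p = 0.0024), Brd9 (1.00, SE 0.12, adjusted p = 0.00138) and Baf180 (1.26, SE 0.12, adjusted p = 0.000218). With offsets the order of these rises turned, at 1.07, 0.92 and 0.80. Col1a2 rose by 1.46 in Baf180 (SE 0.12, adjusted p = 0.000118) and less firmly by 0.50 in Baf250A (adjusted p = 0.0163; not without scramble 1 or scramble 2) and 0.56 in Brd9 (adjusted p = 0.0224; not without scramble 1, scramble 2 or Brd9 1).

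The actin-binding protein gene Tagln rose by 1.55 in Baf250A (SE 0.14, adjusted p = 0.000146) and 0.78 in Baf180 (SE 0.14, adjusted p = 0.0044), with 0.47 in Brd9 (adjusted p = 0.0666; called with offsets at 0.58). The protease inhibitor Timp1 rose by 1.14 in Baf250A (SE 0.14, adjusted p = 0.00065), with 0.03 in Brd9 and −0.01 in Baf180, neither called without offsets. Postn, the matrix protein periostin, rose in Brd9 (2.18, SE 0.34, adjusted p = 0.00555), a call that did not hold without scramble 2 (adjusted p = 0.0631). It was also called higher in Baf250A (1.09, SE 0.35, adjusted p = 0.0435), but not with offsets (0.68) or without scramble 1, scramble 2 or Baf250A 2.

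**Figure D4:**
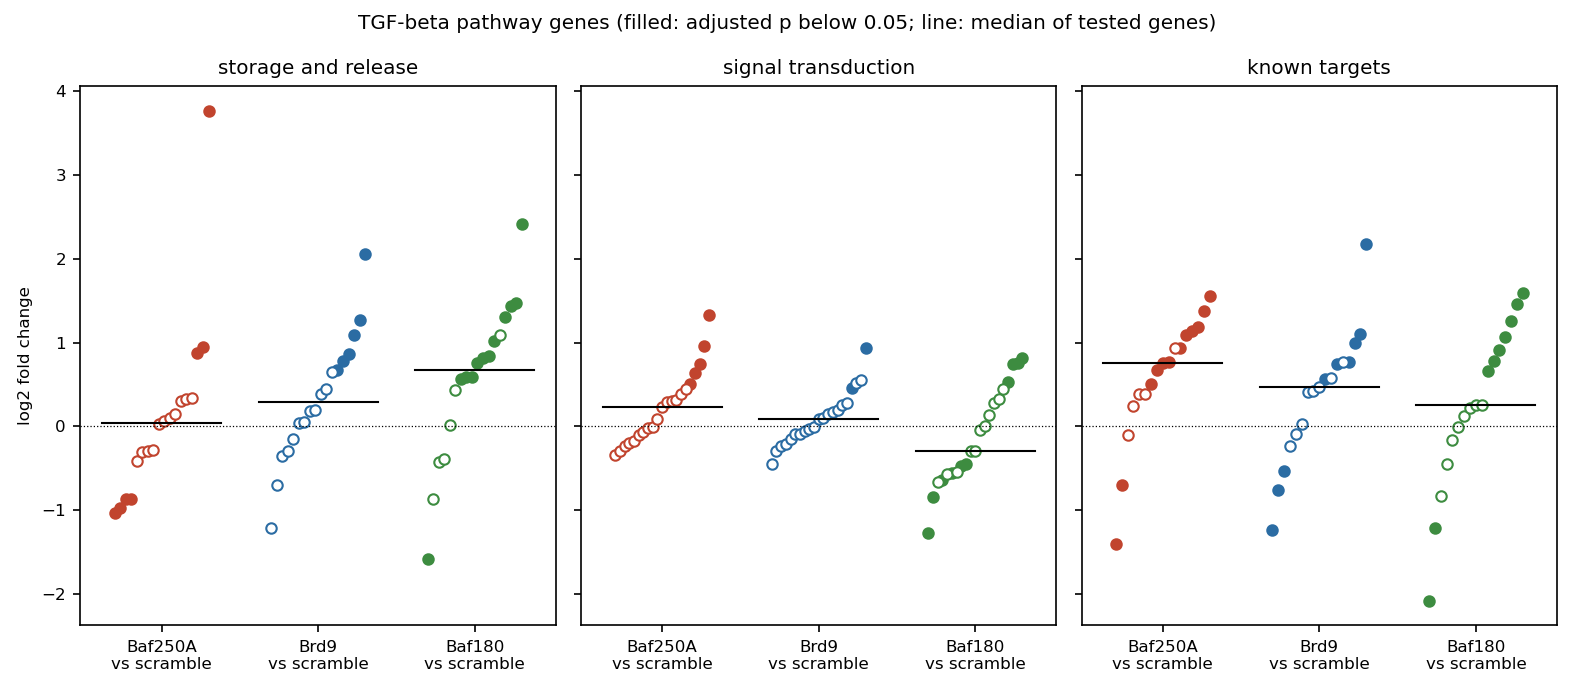
Log2 fold change against scramble of the tested genes of the release, transduction and target lists in Baf250A, Brd9 and Baf180 knockdown; each point is 1 gene, filled points passed an adjusted p under 0.05 and lines are medians. The release genes lie mostly above 0 in Baf180 knockdown, with 11 called higher and 1 lower, and Lrrc32 stands apart in Baf250A at 3.77.

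The genes whose levels followed a member most closely over the 8 libraries were sought among 9808 genes by Pearson r of log2 CPM, as a description only, since libraries of a group share their treatment and GC trend. For Tgfb3 they were Foxf2 (0.996), a forkhead transcription factor, Nod1 (0.985) and Fbln5 (0.983), an elastic fibre protein. For Ltbp2 they were Asic1 (0.992), Zc3h12a (0.99) and Col4a1 (0.988), a basement membrane collagen. For Ltbp3 they were Ext2 (0.999), a heparan sulfate polymerase, Spryd3 (0.997) and Slc39a13 (0.996), a zinc transporter.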

How the data were processed

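Total RNA from proliferating C2C12 myoblasts was sequenced on a BGISEQ-500, per the labels' protocols. The authors deposited estimated counts per gene and library, with a transcript length, not normalized. Per the submitters' processing notes the tools were RSEM, Bowtie2, HISAT2, StringTie, Cufflinks and DESeq2, on mm10; versions, roles and strandedness: not given in the sources used here. Of 24573 genes, 24479 matched the reference annotation by gene ID and 9 by accession, and 85 did not match. Depth was 17763076 to 20400863 counts per library, and genes of few counts are the least precise.

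Expected counts were rounded and fitted with edgeR 4.0.16 (R 4.3.3): 4 groups, 8 libraries, TMM scaling, filterByExpr, and the quasi-likelihood test with Benjamini-Hochberg adjustment over 12420 genes; a gene was called at an adjusted p under 0.05. Each SE was taken as the absolute log2 fold change over the root of its F statistic. CPM use TMM-adjusted library sizes, and CPM per kilobase divide by the authors' deposited length. The offsets came from loess curves (span 0.3) of each library's deviation against GC content and length; 98.95% of tested genes had a GC value. Alternatives were RLE scaling, no filter, DESeq2 1.42.0, genes averaging 5 CPM or more, the 4 libraries alone, a replicate block, the offsets and each library left out; for the pathway genes they were added after the data were seen. The fit was also run on simulated data drawn without a GC trend, which cannot show how it behaves under the trend seen here.

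Members and gene lists were chosen with earlier results of these data known. Named are all 10 members, the 3 targeted genes, the 3 genes of lowest p per pathway list and comparison with scramble, and the 3 genes most correlated with each of the 3 members of lowest p; D030025P21Rik and the marker genes given singly were chosen after their values were seen. Replicate pairs differed by more than counting noise in every group. Sequences and coordinates are from RefSeq GRCm38.p6, and RefSeq has a promoter entry here for 8 members. A few genes are not reported here.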

Additional observations from a re-analysis of the deposited data

How the results depend on the processing

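Of the counts of called members, that for Brd9 against scramble (2) depended most on the processing. It was 6 without a filter on low counts, 6 from the 4 libraries alone, 5 with GC and length offsets, 4 with DESeq2, 1 with the replicate block, 5 with the replicate block and the offsets, and 0 to 4 with 1 library left out. With 1 library left out the counts ranged from 4 to 7 for Baf250A and 4 to 6 for Baf180 against scramble, 5 to 9 for Baf250A against Baf180, and 3 to 7 for Brd9 against Baf180; a lone library was then assumed to vary like the other groups. The count for Baf250A against Brd9 (3) was 5 with offsets, with or without the replicate block. All other alternatives kept the counts within 1.5 times. Some differences that were not called changed sign. Against scramble in Brd9 knockdown, offsets with and without the block gave −0.01 for Ltbp1 and −0.03 for Ltbp2, and leaving out 1 library gave −0.40 to 0.07 for Tgfb1, −0.02 to 0.19 for Ltbp2 and −0.26 to 0.03 for Ltbp3. In Baf180 knockdown Tgfb2 ranged from −0.01 to 0.42. For Baf250A against Brd9, both offset fits gave 0.03 for Tgfbr2, and 0.21 or, with the block, 0.20 for Ltbp3, while leaving out 1 library gave −0.47 to 0.03 for Ltbp3 and −0.03 to 0.45 for Tgfb2. For Baf250A against Baf180, both offset fits gave 0.12 for Tgfbr2 and 0.04 for Ltbp2, of which Ltbp2 had been called lower at −0.66. For Brd9 against Baf180, Tgfb2 was −0.0037 with block and offsets, Tgfbr2 −0.02 with RLE scaling or DESeq2 and −0.08 to 0.09 with 1 library left out, and Tgfbr3 −0.14 with offsets, −0.13 with block and offsets, and −0.10 to 0.75 with 1 library left out. Usp15 in Baf250A knockdown was −0.24 against scramble in both offset fits, against 0.64 without. The cause was not tested. The labels do not say whether a shared replicate number marks a shared culture. Deviations of same-numbered libraries correlated at −0.481 to 0.456 between groups.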
